A study of Homo sapiens with 4 samples.

Results

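A set of 9 luminal-apocrine genes, FOXA1, GATA3, ESR1, TMPRSS2, DHRS2, PIP, SPDEF, ELF3 and EPCAM, was examined in RNA-seq libraries labelled as a breast cancer line, MDA-MB-453, with reduced TMEM9. They were chosen by name, with earlier results of these data known. Each matched 1 row, so 9 of the 48162 genes in the count table are described. One group is labelled TMEM9 KD (2 libraries), and it is set against a group labelled wild type (WT, 2 libraries). The 4 libraries all carry that cell line label, although several of its known genes were at or near 0 in the counts, and no treatment, time, clone or route of knockdown is given in the sources used here. TMEM9 is a membrane protein of endosomes and lysosomes.

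In luminal breast cells FOXA1, GATA3 and the estrogen receptor ESR1 form a transcription factor network that opens and holds the enhancers of luminal genes. Apocrine breast tumours typically lack ESR1, respond to androgen and carry an apocrine programme with secreted proteins such as PIP. MDA-MB-453 is widely used as a model of this class: it is known for FOXA1, SPDEF, GATA3 and PIP, for HER2 (ERBB2) and for little or no ESR1.

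Promoter sequences are shown for 4 of the genes because they span the outcomes met in the data: FOXA1 and DHRS2, which were higher in TMEM9 KD, ELF3, which was lower, and PIP, which had no counts. Each run gives the 250 bases before the annotated start in RefSeq (GRCh38.p14), read 5′ to 3′ on the strand of the gene. Capitals mark matches to any of 4 motifs, searched on both strands. Forkhead factors such as FOXA1 are known to bind sites searched here as TGTTTAC. For zinc finger factors of the GATA3 family the letters searched were AGATAA. The core bound by many ETS factors was searched as CCGGAA. The box bound by the general transcription machinery near many regulated starts was searched as TATAAA. No marked match overlaps another.
FOXA1, chr14:37595250-37595499, minus strand: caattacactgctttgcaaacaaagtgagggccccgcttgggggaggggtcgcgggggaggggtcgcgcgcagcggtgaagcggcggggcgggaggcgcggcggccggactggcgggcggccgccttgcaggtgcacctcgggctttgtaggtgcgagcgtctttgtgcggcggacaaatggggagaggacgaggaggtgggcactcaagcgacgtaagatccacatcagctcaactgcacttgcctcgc
DHRS2, chr14:23629865-23630114, plus strand: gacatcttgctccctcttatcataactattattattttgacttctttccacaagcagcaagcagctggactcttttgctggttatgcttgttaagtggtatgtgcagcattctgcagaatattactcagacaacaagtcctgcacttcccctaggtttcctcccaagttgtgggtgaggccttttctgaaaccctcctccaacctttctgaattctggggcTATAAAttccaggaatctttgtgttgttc
ELF3, chr1:202010337-202010586, plus strand: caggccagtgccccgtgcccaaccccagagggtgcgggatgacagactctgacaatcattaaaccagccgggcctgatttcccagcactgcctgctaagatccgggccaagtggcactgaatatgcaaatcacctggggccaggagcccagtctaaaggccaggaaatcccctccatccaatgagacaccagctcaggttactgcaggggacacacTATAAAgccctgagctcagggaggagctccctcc
PIP, chr7:143131827-143132076, plus strand: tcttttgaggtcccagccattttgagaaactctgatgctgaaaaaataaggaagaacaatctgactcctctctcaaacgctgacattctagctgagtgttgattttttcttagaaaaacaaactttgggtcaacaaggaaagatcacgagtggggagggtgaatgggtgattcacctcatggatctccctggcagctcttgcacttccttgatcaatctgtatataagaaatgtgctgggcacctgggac
DHRS2 and ELF3 hold a TATAAA, at 29 to 24 and at 34 to 29 bases before the start, a motif found in 10.7% of 35116 RefSeq promoter windows of this length. No match to the exact letters searched lies in the FOXA1 and PIP windows. The PIP window holds tatataag near the annotated start, a spelling that was not searched. FOXA1 has 26 CpG dinucleotides, DHRS2 has 0, ELF3 has 4 and PIP has 2, where the median window has 11. The promoters of the 2 printed genes that were higher differ widely in base composition. A match describes letters and not a bound site. Of the other genes, GATA3 and ESR1 have 6 starts each and SPDEF has 1. In the windows of GATA3 and ESR1, CCGGAA was matched 2 times and 1 time, and TATAAA was matched 1 time in GATA3. CCGGAA is found in 14.5% of all windows. The exact letters searched for the forkhead and GATA motifs, found in 2.98% and 9.17% of windows, had no match in any window of the 7 genes with a sequence. Other spellings of these sites were not searched, so their absence is not shown.

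Library totals ran from 15323843 to 18517337 counts. TMEM9 itself was at 3.11 and 4.47 CPM in TMEM9 KD, against 74.9 and 83.3 CPM in WT (CPM, counts over the library total after TMM scaling), a log2 fold change of -4.37 (SE 0.13, edgeR quasi-likelihood adjusted p = 4.12e-52). The labels do not state whether replicates are separate cultures; the p-values reflect how far the 4 libraries differ within groups, and that spread may be technical. In bulk RNA, fewer cells with a transcript and less transcript per cell cannot be told apart.

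Measured per length, each of the 9 luminal-apocrine genes stayed below 10 TPM in every library. Levels between genes are given in TPM, counts divided by exon length and scaled to the same total in each library. Together the 9 genes summed to 22.1 and 25.7 TPM in TMEM9 KD, against 11.0 and 12.2 TPM in WT. In TMEM9 KD, FOXA1 led with 8.09 ± 0.557 TPM, followed by GATA3 with 7.57 ± 0.771 and DHRS2 with 6.83 ± 1.40 TPM (SD, n = 2). Both TMEM9 KD libraries gave this order, with 7.69, 7.03 and 5.83 TPM in replicate 1 and 8.48, 8.12 and 7.82 TPM in replicate 2. The values of the 3 genes overlapped between these libraries, so the order is not taken as resolved. All others were below 1 TPM there: EPCAM 0.582 ± 0.296 TPM, ESR1 0.279 ± 0.0128 TPM, TMPRSS2 0.254 ± 0.129 TPM, ELF3 0.251 ± 0.0606 TPM, SPDEF 0.0650 ± 0.0920 TPM and PIP 0 TPM (SD, n = 2). Among these, ESR1, TMPRSS2 and ELF3 overlapped one another.

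In WT the order was another one, with GATA3 at 2.80 ± 0.851 TPM, TMPRSS2 at 2.77 ± 0.260 TPM, FOXA1 at 2.67 ± 0.150 TPM and ELF3 at 1.79 ± 0.0559 TPM (SD, n = 2). The first 3 overlapped and ELF3 lay below them in both libraries. DHRS2 at 0.735 ± 0.0524 TPM overlapped EPCAM at 0.572 ± 0.244 TPM, and ESR1 at 0.177 ± 0.0581 TPM overlapped SPDEF at 0.109 ± 0.154 TPM (SD, n = 2). Of the 9 genes, 3 reached a mean of 1 TPM in TMEM9 KD and 4 in WT. FOXA1 stood above 52.4% and 53.4% of protein-coding genes in the TMEM9 KD libraries, against 43.8% and 43.3% in the WT libraries. It was thus near the middle of the coding genes in all 4 libraries.

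These levels go against what is known of MDA-MB-453, most plainly for PIP, SPDEF and EPCAM. FOXA1 and GATA3, for which the line is known, were below 10 TPM, and VIM, FN1 and CAV1, known from mesenchymal cells, were far above them in all 4 libraries. The counts do not settle which cells the libraries came from. PIP had 0 counts in all 4 libraries, which allows up to 0.0887 CPM over the TMEM9 KD libraries and 0.0911 CPM over the WT libraries (3 counts over the group, counting error only). SPDEF (ENSG00000124664, chromosome 6), an ETS factor of luminal and secretory epithelium, had 1 and 0 counts in TMEM9 KD, against 0 and 2 in WT. EPCAM (ENSG00000119888, chromosome 2), the epithelial adhesion molecule, had 8 and 4 counts in TMEM9 KD, against 4 and 9 in WT. ERBB2 was at 21.1 and 22.0 TPM in TMEM9 KD, against 23.2 and 23.1 TPM in WT. That was above 65.6% and 66.3% of protein-coding genes in the TMEM9 KD libraries, and above 68.2% and 68.1% in the WT libraries. The low ESR1 is what the label would lead to. Expression data of MDA-MB-453 from elsewhere were not used here.

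**Figure D1:**
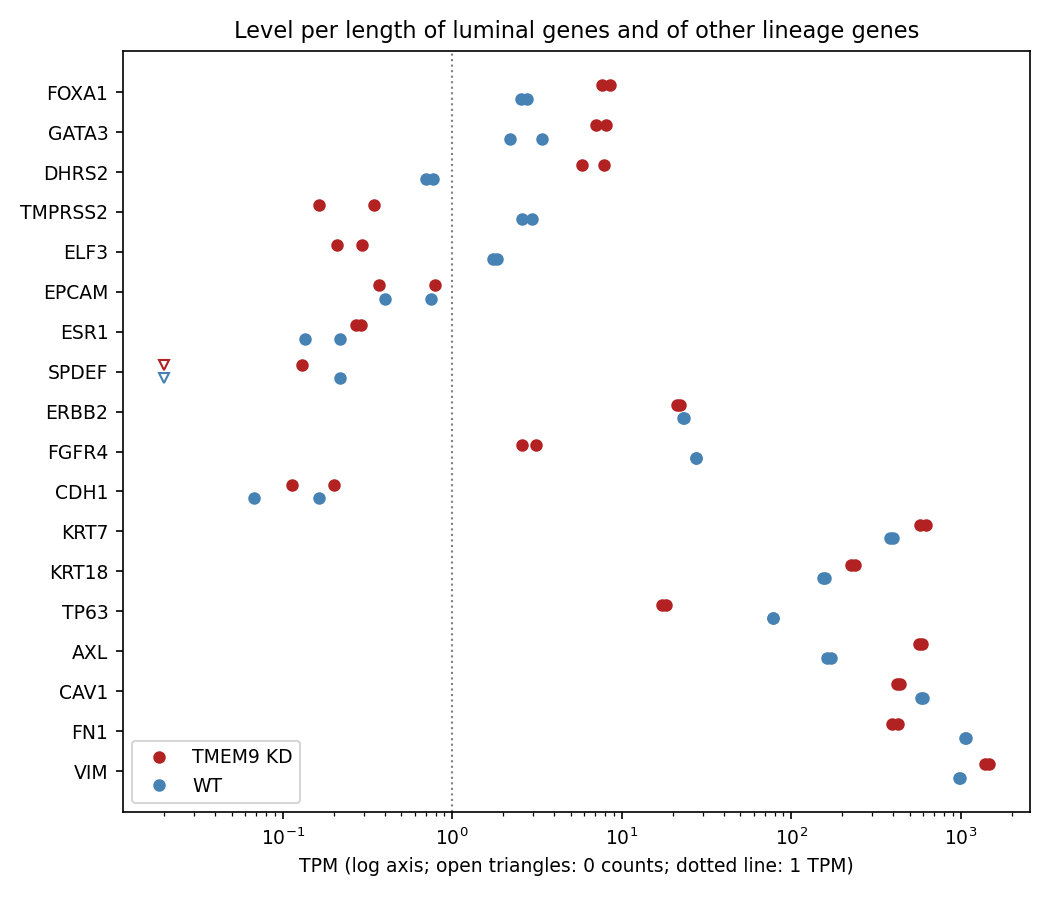
Level per length (TPM, log axis) of 8 luminal-apocrine genes of the set and of other apocrine, epithelial, basal and mesenchymal genes. Each library has a point, with TMEM9 KD above WT in each row and open triangles for 0 counts. All 8 luminal-apocrine genes lie below 10 TPM, and VIM lies at 1459 and 1384 TPM in TMEM9 KD, against 978 and 985 TPM in WT.

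Mesenchymal and fibroblast lists summed far above the 9 genes, whereas most leukocyte, endothelial and retinal markers were below 1 TPM in every library. The lists of epithelial, basal, luminal transcription factor and androgen-response genes summed far above the 9 genes as well. The epithelial list, with surface genes and simple keratins, summed to 1221 and 1302 TPM in TMEM9 KD, against 1143 and 1175 TPM in WT. The basal list summed to 941 and 986 TPM in TMEM9 KD, against 1187 and 1206 TPM in WT. The intermediate filament VIM, known from mesenchymal cells, had 1422 ± 52.8 TPM in TMEM9 KD and 982 ± 5.03 TPM in WT (SD, n = 2). S100A4 had 2082 ± 6.90 TPM in TMEM9 KD and 1334 ± 24.1 TPM in WT, and the matrix protein FN1 had 409.8 ± 27.0 TPM in TMEM9 KD and 1063 ± 11.0 TPM in WT (SD, n = 2). Over 18 mesenchymal genes the summed level was 8009 and 8146 TPM in TMEM9 KD, against 6819 and 6868 TPM in WT, and 14 of them were at 10 TPM or more in every library. Of the 18, 8 were called higher and 7 lower. Of 13 fibroblast markers, 7 reached 10 TPM in every library, with sums of 995 and 1094 TPM in TMEM9 KD, against 1643 and 1659.7 TPM in WT. The 12 tested went both ways, 5 higher and 6 lower. COL3A1 had 18.7 ± 2.92 TPM in TMEM9 KD and 527 ± 6.33 TPM in WT (SD, n = 2). COL1A1 rose, with 577 ± 52.6 TPM in TMEM9 KD and 315 ± 3.97 TPM in WT (SD, n = 2), and COL1A2 was below 1 TPM in every library. For 14 leukocyte markers the sums were 10.3 and 12.2 TPM in TMEM9 KD, against 157 and 158 TPM in WT. LCP1 made most of the WT sums (4.72 and 5.28 TPM in TMEM9 KD, against 138 and 136 TPM in WT). Of the 4 tested, PTPRC was called higher, and LCP1, CD14 and CD74 lower. CD14 had 1.58 and 3.61 TPM in TMEM9 KD, against 12.4 and 16.6 TPM in WT. CD74 had 0 and 0.221 TPM in TMEM9 KD, against 4.81 and 3.27 TPM in WT. CD3E, MS4A1 and LYZ were at 0. Endothelial markers summed to 8.66 and 7.28 TPM in TMEM9 KD, against 7.75 and 7.08 TPM in WT, most of it ERG. The series text calls the profiles retinal, but GNAT1 and RCVRN had 0 counts, and OPN1SW made most of the sum of 17 retinal genes, which was 27.5 and 29.4 TPM in TMEM9 KD, against 51.8 and 52.4 TPM in WT. What part these lists have in the results below was not tested.

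Between the groups, FOXA1, GATA3 and DHRS2 rose and TMPRSS2 and ELF3 fell. Of the 9 genes, 6 passed the filter on low counts, and 5 of these 6 were called (edgeR quasi-likelihood test, adjusted p below 0.05 over all genes tested). The background is high: 57.7% of the 14923 genes tested were called, 28.7% as higher and 29.0% as lower. All 5 changed by at least 2-fold, as did 17.4% of all genes tested (7.24% higher and 10.1% lower), or 29.6% of those with a mean of 2 to 10 CPM, where 4 of the 5 lie. ELF3 lies just under 2 CPM, where 38.1% were called with such a change. The groups did not overlap in CPM for all 6 tested genes, as for 77.6% of all genes tested. As the genes were chosen with earlier results of these data known, these shares describe them and are no test of the set.

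**Figure D2:**
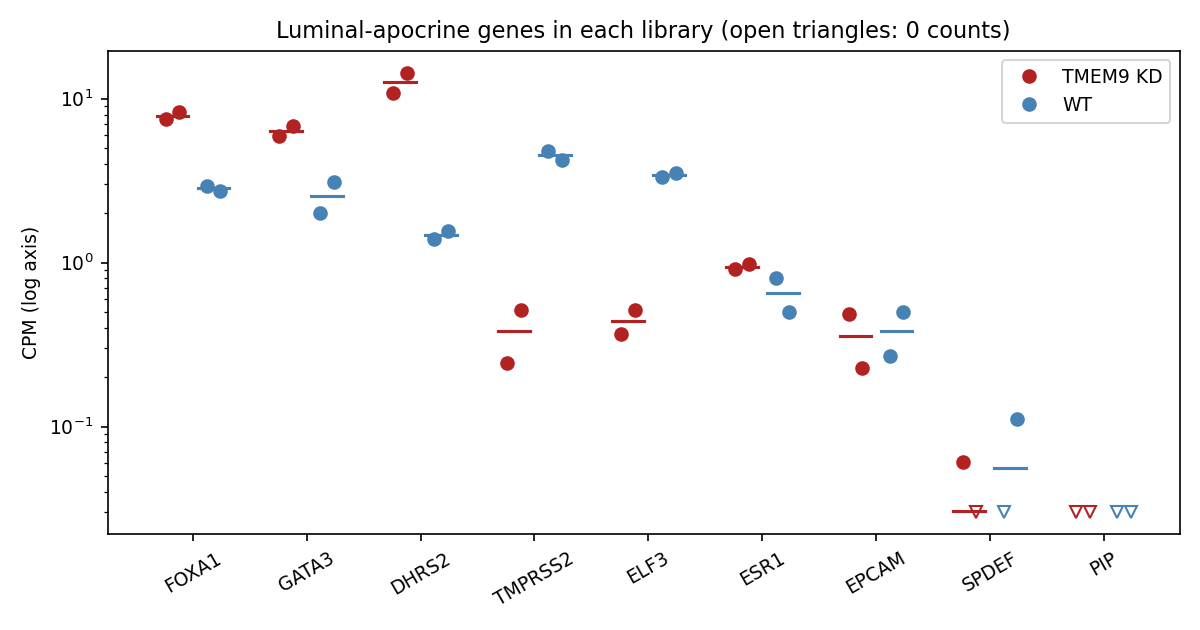
CPM (log axis) of the 9 genes in each library, TMEM9 KD left of WT for each gene, with the group mean as a bar and open triangles for 0 counts. The points of FOXA1, GATA3 and DHRS2 in TMEM9 KD lie above those in WT, and the points of TMPRSS2 and ELF3 lie below, while those of EPCAM and SPDEF overlap.

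Among the transcription factors, FOXA1 (ENSG00000129514, chromosome 14), a pioneer factor that opens chromatin for nuclear receptors, had 123 and 144 counts in TMEM9 KD, against 44 and 49 counts in WT. In CPM that is 7.51 and 8.25 in TMEM9 KD, against 2.94 and 2.73 in WT. Both TMEM9 KD libraries were above both WT libraries, and the log2 fold change was 1.48 (SE 0.22, edgeR adjusted p = 1.36e-08), a fold of 2.78. FOXA1 shares 16 exon bases with TTC6 on the other strand, which had 1 to 3 counts per library.

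GATA3 (ENSG00000107485, chromosome 10), a zinc finger factor needed for luminal fate, had 5.92 and 6.82 CPM in TMEM9 KD, against 2.01 and 3.12 CPM in WT. The WT libraries lay further apart than for FOXA1, with 30 and 56 counts, and still below both TMEM9 KD libraries with 97 and 119 counts. The log2 fold change was 1.29 (SE 0.24, edgeR adjusted p = 2.84e-06), a fold of 2.45.

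ELF3 (ENSG00000163435, chromosome 1), an epithelial ETS factor, had 6 and 9 counts in TMEM9 KD, against 50 and 63 counts in WT. In CPM it was at 0.366 and 0.516 in TMEM9 KD, against 3.34 and 3.50 in WT, so that the groups lie well apart. It fell by 2.93 on the log2 scale (SE 0.42, edgeR adjusted p = 3.12e-09), 7.62-fold lower in TMEM9 KD. An antisense gene, ELF3-AS1, shares 664 of the 7191 exon bases of ELF3 and had 13 and 2 counts in TMEM9 KD, against 4 and 13 in WT. As the strand setting is not given, reads of the pair cannot be told apart there.

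ESR1 (ENSG00000091831, chromosome 6), the estrogen receptor, had 15 and 17 counts in TMEM9 KD, against 12 and 9 counts in WT. At 0.916 and 0.974 CPM in TMEM9 KD, against 0.803 and 0.501 CPM in WT, the libraries did not overlap, but the difference did not pass the test (log2 fold change 0.56, SE 0.52, edgeR adjusted p = 0.369). The ratio of summed counts was 1.48, with an exact Clopper-Pearson 95% interval of 0.829 to 2.71, so a rise like that of GATA3 lies inside the interval. SPDEF, with 1 count in TMEM9 KD and 2 counts in WT, had a ratio of 0.487 with an interval of 0.00825 to 9.35, and a difference was not detectable at this depth. These intervals cover counting error only.

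Of the genes that respond to androgen or mark apocrine cells, TMPRSS2 and DHRS2 moved in opposite directions. TMPRSS2 (ENSG00000184012, chromosome 21), a membrane serine protease that androgen induces in prostate, had 4 and 9 counts in TMEM9 KD, against 72 and 76 counts in WT. Its level was 0.244 and 0.516 CPM in TMEM9 KD, against 4.82 and 4.23 CPM in WT, with no overlap. TMPRSS2 fell by 3.53 on the log2 scale (SE 0.41, edgeR adjusted p = 1.18e-12), and it fell by 3.10 without TMEM9 KD replicate 1 and by 4.17 without TMEM9 KD replicate 2.

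DHRS2 (ENSG00000100867, chromosome 14), a short-chain dehydrogenase of mitochondria and nucleus, had 177 and 252 counts in TMEM9 KD, against 21 and 28 counts in WT. At 10.8 and 14.4 CPM in TMEM9 KD, against 1.40 and 1.56 CPM in WT, DHRS2 lay far apart between the groups, with no overlap. The log2 fold change was 3.08 (SE 0.23, edgeR adjusted p = 3.50e-22), a fold of 8.47. PIP (ENSG00000159763, chromosome 7), the prolactin-induced protein secreted by apocrine glands, had no counts and gives no fold. EPCAM had 0.489 and 0.229 CPM in TMEM9 KD, against 0.268 and 0.501 CPM in WT, which overlap, and a ratio of summed counts of 0.899 with an interval of 0.375 to 2.14.

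**Figure D3:**
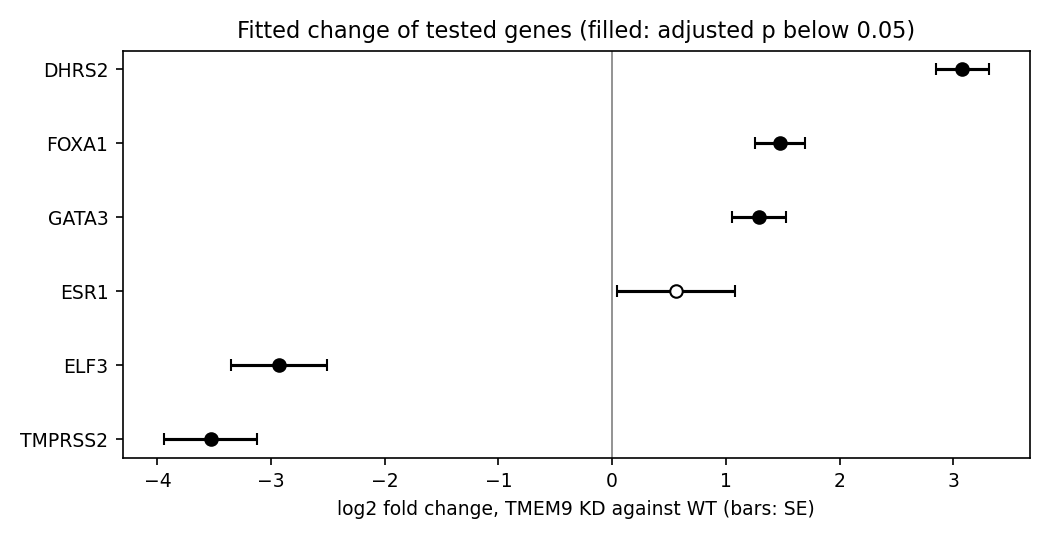
Fitted log2 fold change of TMEM9 KD against WT with its SE for the 6 tested luminal-apocrine genes, filled where the adjusted p was below 0.05. DHRS2 is farthest right at 3.08 and TMPRSS2 farthest left at -3.53, and ESR1 is the open point at 0.56.

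Androgen-response genes went both ways. Of 32 such genes, counting TMPRSS2, 26 passed the filter, of which 10 rose and 9 fell, with a median log2 fold change of 0.01, the same as over all genes tested. Besides TMPRSS2, the falls were led by AQP3, a water and glycerol channel, with 1.19 ± 0.108 TPM in TMEM9 KD and 27.5 ± 2.61 TPM in WT, and NDRG1, with 14.1 ± 0.0449 TPM in TMEM9 KD and 126 ± 5.16 TPM in WT (SD, n = 2). BMPR1B, a receptor for bone morphogenetic proteins, rose most, with 6.07 ± 0.231 TPM in TMEM9 KD and 0.798 ± 0.0541 TPM in WT (SD, n = 2). ELL2, an elongation factor, fell by 0.96 on the log2 scale. The kallikreins KLK2 and KLK3, which androgen induces in prostate, had at most 2 counts in any library.

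Apocrine and secretory genes were mostly absent. Of 28 such genes, counting PIP and DHRS2, 20 were below 1 TPM in every library and 10 had no count at all, among them the secretoglobins SCGB2A1, SCGB2A2 and SCGB1D2. Only 7 passed the filter, of which 1, DHRS2, rose and 5 fell, with a median log2 fold change of -1.05 against 0.01 over all genes tested. CLCA2, a chloride channel regulator known from airway and breast epithelium, had 1.09 ± 0.371 TPM in TMEM9 KD and 53.6 ± 4.95 TPM in WT (SD, n = 2). The growth factor receptor FGFR4 had 2.84 ± 0.374 TPM in TMEM9 KD and 27.4 ± 0.193 TPM in WT (SD, n = 2). GGT1 had a log2 fold change of -1.12 and ERBB2 one of -0.23 (edgeR adjusted p = 0.00299 and 0.0126).

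Luminal transcription factors went both ways. Of 22, counting FOXA1, GATA3, ESR1, SPDEF and ELF3, 15 passed the filter, with 6 higher and 5 lower and a median log2 fold change of 0.25. EHF, an ETS factor of epithelia close to ELF3, fell most, with 3.23 ± 1.03 TPM in TMEM9 KD and 54.9 ± 2.57 TPM in WT (SD, n = 2; log2 fold change -4.20, SE 0.13, edgeR adjusted p = 1.60e-48). MYB rose by a log2 fold change of 1.53. The highest levels in WT were those of XBP1, a factor of secretory cells, with 195 ± 0.742 TPM in TMEM9 KD and 237 ± 14.8 TPM in WT (SD, n = 2), then CREB3L1 and TFAP2C, with log2 fold changes of -0.40, -0.23 and -0.38, all called. In TMEM9 KD, TBX3 with 65.2 and 58.2 TPM lay above TFAP2C with 53.0 and 51.4 TPM, and TBX3 did not pass the test (log2 fold change 0.13, edgeR adjusted p = 0.123). The progesterone receptor gene PGR and GRHL2, an epithelial factor, had at most 1 count in any library.

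**Figure D4:**
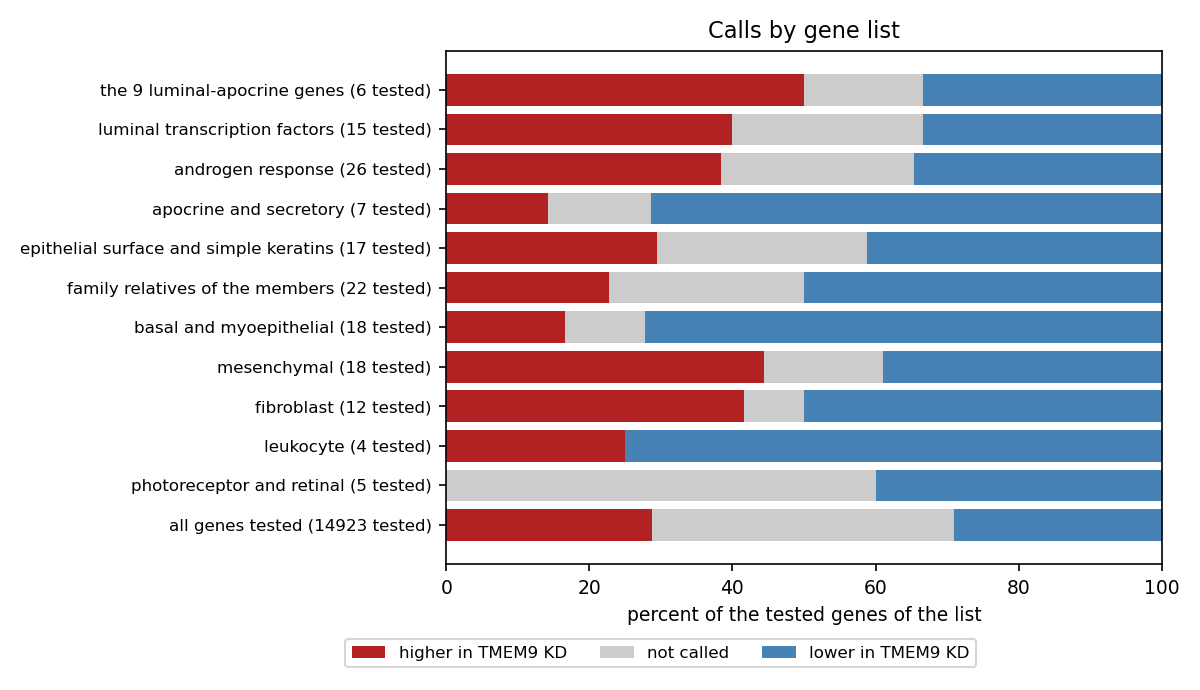
Percent of the tested genes of each list that were higher (left), not called (middle) or lower (right) in TMEM9 KD against WT. The bottom bar is the background over all 14923 genes, of which 28.7% were higher and 29.0% lower.

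Surface genes of epithelia, simple keratins and other epithelial genes were present in part. Of 30 such genes, 16 were below 1 TPM in every library, among them EPCAM, CLDN7 and the cadherin gene CDH1, which had 0.202 and 0.114 TPM in TMEM9 KD, against 0.163 and 0.0675 TPM in WT. Yet the simple keratin KRT7 was at 603 ± 34.2 TPM in TMEM9 KD and 392 ± 10.4 TPM in WT (SD, n = 2), and KRT18 at 226 and 238 TPM in TMEM9 KD, against 154 and 159 TPM in WT. KRT8 was at 156 and 163 TPM in TMEM9 KD, against 149 and 159 TPM in WT. It did not pass the test (log2 fold change -0.07, edgeR adjusted p = 0.303). KRT19 was nearly absent, with 1 and 4 counts in TMEM9 KD, against 6 and 2 counts in WT. Of the 17 tested, 5 rose and 7 fell, with a median log2 fold change of -0.56. CDH3 had a log2 fold change of -4.90 and the tight junction gene CLDN1 one of -2.09, whereas AP1M2, a subunit of the epithelial adaptor for basolateral sorting, rose by a log2 fold change of 3.61. Markers of basal cells fell in 13 of 18 tested and rose in 3 (median -1.15), with KRT14 at 0 counts in both TMEM9 KD libraries, against 185 and 307 counts in WT, and TP63 at 17.8 ± 0.735 TPM in TMEM9 KD and 78.2 ± 0.562 TPM in WT (SD, n = 2).

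FOXA1, GATA3, ESR1, TMPRSS2, DHRS2 and ELF3 each had a relative of the same gene family with a higher mean TPM in both groups. FOXA2, a pioneer factor like FOXA1 that is known from endoderm, went the other way, with 2.01 and 2.07 TPM in TMEM9 KD, against 21.8 and 20.5 TPM in WT (log2 fold change -3.49, SE 0.22, edgeR adjusted p = 2.56e-26). FOXA2 was thus above FOXA1 in both WT libraries and below it in both TMEM9 KD libraries. GATA2 had 17.7 and 17.3 TPM in TMEM9 KD, against 20.6 and 23.2 TPM in WT, and GATA6 had 38.4 and 40.7 TPM in TMEM9 KD, against 28.8 and 29.3 TPM in WT. Both were above GATA3 in every library, with log2 fold changes of -0.45 for GATA2 and 0.32 for GATA6, both called.

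ESR2, the second estrogen receptor, had 2.27 and 1.66 TPM in TMEM9 KD, against 0.969 and 0.871 TPM in WT, above ESR1 in all libraries, and rose by a log2 fold change of 0.97 (SE 0.28, edgeR adjusted p = 0.00171). TMPRSS3 fell along with TMPRSS2, with 0 and 2 counts in TMEM9 KD, against 30 and 42 counts in WT. TMPRSS15, the enteropeptidase of the gut, was at 178 and 165 TPM in TMEM9 KD, against 155 and 162 TPM in WT, and did not pass the test (log2 fold change -0.01, SE 0.06, edgeR adjusted p = 0.903). DHRS3, which reduces retinal to retinol, had 4.84 and 4.17 TPM in TMEM9 KD, against 32.1 and 32.3 TPM in WT, a fall where DHRS2 rose. Of 36 matched relatives, 22 were tested, with 5 higher and 11 lower and a median log2 fold change of -0.18.

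**Figure D5:**
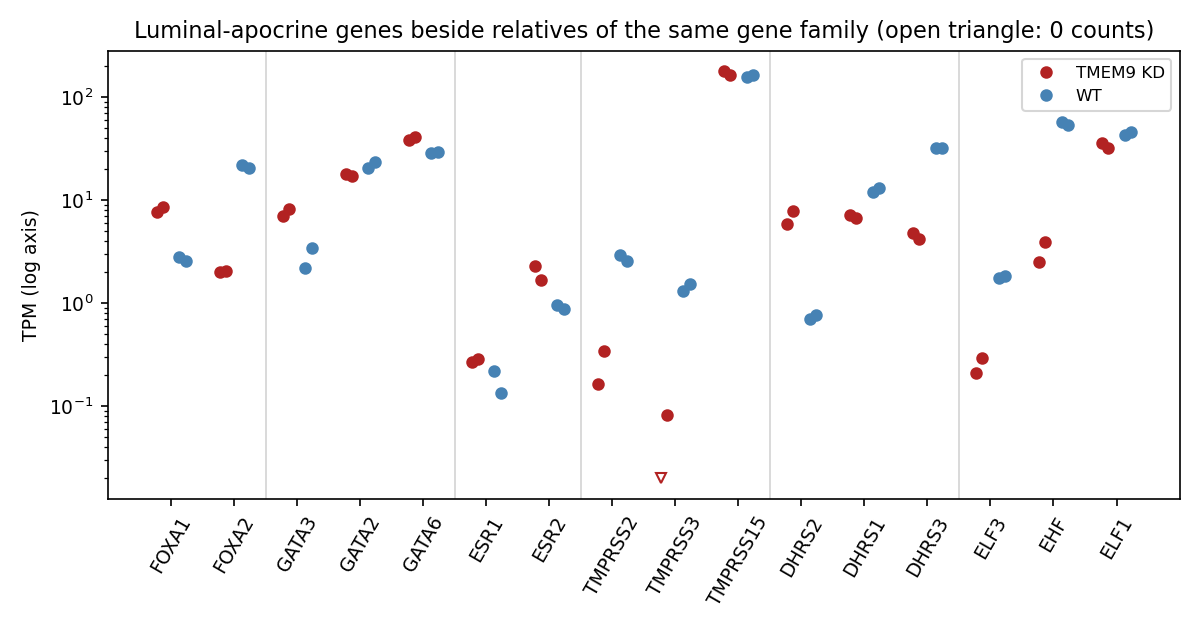
TPM (log axis) of FOXA1, GATA3, ESR1, TMPRSS2, DHRS2 and ELF3 beside relatives, separated by grey lines into families, with a point for each library and TMEM9 KD left of WT. FOXA1 and FOXA2 move in opposite directions, and GATA6, ESR2, TMPRSS15, EHF and ELF1 lie above the member of their family in every library.

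Genes next to TMPRSS2 in the GENCODE 29 order of protein-coding genes fell as well. MX1, an interferon-induced GTPase, had 2.99 and 2.69 CPM in TMEM9 KD, against 9.03 and 8.62 CPM in WT, a log2 fold change of -1.63. Beyond MX1, its relative MX2 had a log2 fold change of -3.08, and RIPK4 on the other side of TMPRSS2 one of -0.66 (edgeR adjusted p = 2.85e-22 and 3.87e-14). The genes beyond RIPK4 did not follow: PRDM15 did not pass the test (log2 fold change 0.18) and C2CD2 rose by a log2 fold change of 0.26. Among the 3 genes on each side of DHRS2, DHRS4 did not pass the test (log2 fold change 0.32) and THTPA rose by a log2 fold change of 1.10. FOXA1 has MIPOL1 beside it, which rose by a log2 fold change of 0.39, and beyond it SLC25A21, which rose by a log2 fold change of 1.58 (edgeR adjusted p = 0.00948) on 2 to 23 counts per library. Near ELF3, RNPEP had a log2 fold change of -0.37 and TIMM17A rose by a log2 fold change of 0.35. These neighbours were singled out after their values were seen.

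Profiles most like those of the members were sought over the 4 libraries, as the smallest Euclidean distance between log2(CPM + 0.5) values centred on their mean, among 12015 protein-coding genes averaging 1 CPM or more (12016 for ESR1). FOXA1 was nearest to HS3ST3A1 (distance 0.0458) and NTN1, and GATA3 to TTC39B (0.0815) and FOXP2. TMPRSS2 was nearest to WNT6 (0.0325) and GPR183, ELF3 to NMNAT2 (0.0590) and CLDN1, DHRS2 to ANO2 (0.151) and NOG, and ESR1 to MCF2L2 (0.0204) and GOSR2. With 4 libraries in 2 groups, such a distance mainly measures the size of the group difference in log2(CPM + 0.5) and is given as a description. The added 0.5 CPM shrinks the changes of genes with low CPM, so fitted changes of near profiles can differ. ANO2 had a log2 fold change of 5.21, where DHRS2 had 3.08.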

How the data were processed

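Each of the 4 libraries was made from 1 ug of total RNA, per the labels' protocols. The authors deposited unnormalised counts per Ensembl gene. CASAVA and Bowtie 0.12.2 appear in the submitters' processing notes, as do both a human build (hg19) and a mouse build (mm8), with no role for either. For the counting tool, its annotation and its strand option nothing is given in the sources used here. From the counts, edgeR 4.0.16 in R 4.3.3 was run on all genes (TMM, filterByExpr with minimum count 10 and minimum total 15, quasi-likelihood F test, group only, 2 residual degrees of freedom), with Benjamini-Hochberg adjustment over 14923 genes and a threshold of 0.05. Each SE was taken from the fold change and its F value (log2 fold change divided by root F). TPM used union exon lengths of GENCODE 29, known for 45342 genes that held at least 99.36% of the counts of a library. Replicates of a group differed by more than sampling noise (chi-square over degrees of freedom 4.82 in TMEM9 KD and 2.04 in WT) and were all kept. Alternatives were other scaling, other filters, DESeq2 1.42.0, limma 3.58.1 voom, a test against 1.5-fold, the replicate number as a block, and 1 library less. Genes named are the 9 members, TMEM9 and, from each list, up to 4 with the largest called change and up to 3 with the highest WT level, or up to 2 by level for other cell types, the 2 nearest profiles of each tested member and the defining genes of MDA-MB-453; others, such as ESR2, GATA2, GATA6, TP63, neighbouring genes and genes named for having few or no counts, were chosen after their values were seen. DHRS11 and PECAM1 were not matched. The members and lists were chosen with earlier results of these data known. Sequences were copied from RefSeq. Some results on other genes that the rule names are not reported here.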

Additional observations from a re-analysis of the deposited data

How the results depend on the processing

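FOXA1, GATA3 and DHRS2 stayed higher and TMPRSS2 and ELF3 lower, past the threshold, under every alternative that tested them. With a mean of at least 5 CPM required, 2 members were tested and called higher and 0 were called lower, because TMPRSS2, ELF3, GATA3 and ESR1 were no longer tested. When a change beyond 1.5-fold was asked for, 1111 genes were higher and 1692 lower, where the standard test gave 4283 and 4335, with 3 and 2 members among them. Leaving out 1 library gave 3172 to 4173 genes higher and 3450 to 4405 lower, with 3 members higher and 2 lower each time. Same-numbered libraries did not deviate together (correlation 0.000402 across genes); a fit with the replicate block called 4171 genes higher and 4266 lower, with 3 members higher and 2 lower. ESR1 was not called under any alternative (log2 fold change 0.23 to 0.90 when a library was left out). Without a filter EPCAM had a log2 fold change of -0.13 (edgeR adjusted p = 0.923) and SPDEF -0.85 (0.845). With CPM in place of TPM, 3 members in TMEM9 KD and 5 in WT were at or above 1. Few counts limit ESR1, EPCAM and SPDEF.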
